A study of Saccharomyces cerevisiae with 15 samples.

Results

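The genes described here are the 10 of budding yeast that carry pyruvate to ethanol and acetate: the pyruvate decarboxylase genes PDC1, PDC5 and PDC6, the alcohol dehydrogenase genes ADH1 to ADH5, and the acetaldehyde dehydrogenase genes ALD4 and ALD6. They were taken by gene identifier from a count table of 6692 yeast features. The RNA came from Saccharomyces cerevisiae BY4741, a haploid laboratory strain of mating type a that carries his3∆1, leu2∆, met15∆ and ura3∆. There were 5 groups of 3 libraries: wild type (WT) without sulfometuron (SM), WT with SM, and strains with SPT3, SPT8 or GCN5 replaced by kanMX4, each with SM. SM was given at 1 µg/ml for 25 min to cells growing at 30 °C to an OD600 of 0.6 to 0.8 in a synthetic medium without isoleucine or valine (SC-Ilv). SM blocks the synthesis of those amino acids and thereby induces the transcription factor Gcn4. Spt3, Spt8 and Gcn5 are subunits of SAGA, a coactivator that Gcn4 recruits: Spt3 and Spt8 act on the TATA-binding protein and Gcn5 acetylates histones. No deletion strain without SM is among the libraries used here, so the response of a deletion strain to SM cannot be told apart from its level before SM. Each genotype is a single strain, and nothing in the labels says whether the replicates came from separate cultures, so the p-values measure the spread between these libraries, which may be technical.

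In fermentation, pyruvate decarboxylase, a thiamine diphosphate enzyme, turns pyruvate into acetaldehyde, and alcohol dehydrogenase reduces acetaldehyde to ethanol. Acetaldehyde can instead be oxidised by acetaldehyde dehydrogenase to acetate, which feeds acetyl-CoA synthesis. Pdc1 and Adh1 are the main enzymes of cells growing on glucose. Adh2, repressed by glucose, serves chiefly to take ethanol back up, and Adh3 and Ald4 are mitochondrial, while Ald6 is the main cytosolic acetaldehyde dehydrogenase and a source of NADPH. The SM target, acetolactate synthase, also uses pyruvate, so the medium and drug act at the branch point from which the enzymes described here draw their substrate.

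The coding regions lie on 6 chromosomes of the sacCer3 assembly, which is R64 of RefSeq: II for ADH5 (533762 to 534817), VII for ADH4 (15159 to 16307) and PDC6 (651290 to 652981), XII for PDC1 (232390 to 234081) and PDC5 (410723 to 412414), XIII for ADH3 (434788 to 435915) and ADH2 (873291 to 874337), XV for ADH1 (159548 to 160594) and ALD4 (1039840 to 1041399), and XVI for ALD6 (432588 to 434090). All 10 identifiers matched RefSeq, each gene has an uninterrupted coding exon, and none overlaps another feature of the table. The promoter windows of the 3 genes with the widest spread between group means are shown, since most of the results below turn on them. Each runs from 250 bases before the start codon to 50 bases from it, 5′ to 3′ on the coding strand, from the RefSeq R64 genome: chrII:533512-533811 (plus strand) for ADH5, chrVII:652932-653231 (minus strand) for PDC6 and chrXV:1039590-1039889 (plus strand) for ALD4. Capitals mark the Gcn4 core TGACTC and TATAAA in ADH5, TATAAA in PDC6, and TTGGAG (Adr1), AGGGG (Msn2 and Msn4) and TATAAA in ALD4, each on either strand.
ADH5: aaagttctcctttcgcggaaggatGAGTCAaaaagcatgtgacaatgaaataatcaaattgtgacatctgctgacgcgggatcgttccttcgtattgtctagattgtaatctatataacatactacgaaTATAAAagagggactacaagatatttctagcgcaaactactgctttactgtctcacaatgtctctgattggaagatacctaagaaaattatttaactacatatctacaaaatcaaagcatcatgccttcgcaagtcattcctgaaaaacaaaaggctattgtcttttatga
PDC6: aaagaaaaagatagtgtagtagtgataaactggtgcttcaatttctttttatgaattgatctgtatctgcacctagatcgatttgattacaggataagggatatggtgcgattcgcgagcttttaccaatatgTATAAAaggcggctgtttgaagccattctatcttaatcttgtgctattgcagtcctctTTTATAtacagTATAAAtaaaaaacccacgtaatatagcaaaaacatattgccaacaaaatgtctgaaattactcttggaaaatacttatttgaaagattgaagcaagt
ALD4: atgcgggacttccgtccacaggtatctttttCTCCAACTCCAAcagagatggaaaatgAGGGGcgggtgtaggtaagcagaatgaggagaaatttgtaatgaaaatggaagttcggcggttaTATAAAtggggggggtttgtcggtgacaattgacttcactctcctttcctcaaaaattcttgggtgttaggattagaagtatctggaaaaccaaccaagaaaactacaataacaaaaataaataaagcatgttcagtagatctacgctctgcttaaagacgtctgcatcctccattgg

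The Gcn4 core TGACTC was found, on either strand, in the 250 bases before the start codon of ADH3, ADH4 and ADH5, 3 of the 10 genes, and in 6.25% of 6001 yeast promoters of that length. Its 30-base surroundings are shown because ADH5 and ADH4 are among the genes that were higher after SM and ADH3 is not. The cores lie on the strand opposite to the gene, so they read GAGTCA in capitals, at chrXIII:434582-434611, chrVII:15061-15090 and chrII:533524-533553, and start 194, 86 and 226 bases before the start codons of ADH3, ADH4 and ADH5.
ADH3: tccgggccacagGAGTCAaaggcttttcgc
ADH4: tattaaagactgGAGTCAaacgtttttctt
ADH5: tcgcggaaggatGAGTCAaaaagcatgtga

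TATAAA was present in 9 of the 10 windows, all but that of PDC5, and in 43.4% of all promoters. TATATA was in 7, PDC5 included, and in 31.4% of all promoters, and the TATATA match overlaps a TATAAA match in PDC1, PDC6, ALD4 and ALD6. TTGGAG, a form of the Adr1 site, was in ALD4 alone, with 2 matches, and in 8.4% of all promoters. AGGGG, the stress response element of Msn2 and Msn4, was in ALD4 and ALD6 and in 18.8% of all promoters, while CTTCC, the core of the Gcr1 site, was in ADH1, ADH3, ADH5 and ALD4 and in 39.3%. The Adr1 form TTGGGG (4.17% of all promoters) and the Zap1 site (0.0833%) were in none of the 10 windows. These matches describe letters in a window and not binding.

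Yeast counts ran from 24.8 to 45.7 M per library, and 92 synthetic ERCC spike-in RNAs, added to an equal mass of total RNA, gave 454216 to 651122 counts. Unless stated otherwise, values are counts divided by a spike-in size factor, so a level is per amount of total RNA, and a log2 fold change, its standard error (SE) and its adjusted p come from edgeR's quasi-likelihood test over 6564 genes with a call at 0.05. A second scaling, TMM, which takes most genes as unchanged, is given where it alters a call. The targeted genes had 1 to 3 raw counts of SPT3, 11 to 17 of SPT8 and 12 to 29 of GCN5 in the strain deleted for each, against 668 or more of each in every library of the other strains. Of the mating-type markers, the 7 a-specific genes summed to 2550 to 4550 CPM and the 4 alpha-specific genes, none at 0, to 135 to 305. Library 3 of gcn5 stood apart from the other 2, with a chi-square of 107 and 79.2 per degree of freedom over genes against 17.1 between those 2 and 10.6 to 37.5 within the other groups. It also had 43.2 M yeast counts per spike-in factor against 30.5 and 29.6. Library names place WT and spt3 in a first set and spt8 and gcn5 in a second, so for spt8 and gcn5 the set and the deletion cannot be told apart, while spt3 against WT and spt8 against gcn5 lie within a set.

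In WT, SM was accompanied by a change of the isozymes in opposite directions. ADH5 rose 14.2-fold and PDC6 5.44-fold, with smaller rises of PDC5 and ADH4, whereas the abundant fermentative genes PDC1 and ADH1 fell, as did ADH2 and ALD4. In all, 4 of the 10 genes were called higher and 4 lower, ADH3 and ALD6 not, against 55.7% of all genes called higher and 7.57% lower (63.2% either way). The median of the 10 genes was −0.24 (log2) and that of all genes 0.54, and 6 of the 10 lay below the latter. With TMM, which puts the median of all genes at 0.04, 3 were higher and 6 lower (41.3% and 37.3% of all genes, 78.5% either way), so ADH3 and ALD6 count as lower and ADH4 is not called. The libraries of the 2 WT groups did not overlap for any of the 10 genes, which held for 76.0% of all genes. Lower levels in part of the cells and less RNA in every cell cannot be told apart in these bulk samples.

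Among the decarboxylases, PDC1 (YLR044C), the principal enzyme, had 110549, 123868 and 115081 scaled counts without SM and 59105, 63421 and 62438 with it. Every SM library lay far below every untreated one, and the fall was 0.92 on the log2 scale (SE 0.14, adjusted p = 4.1e-07; 1.89-fold lower). PDC6 (YGR087C), a minor isozyme known to be induced when sulfur is limiting, went the other way, from 152, 136 and 109 scaled counts to 731, 781 and 646 (log2 fold change 2.44, SE 0.21, adjusted p = 1.06e-12). Its lowest SM library lay above every untreated one, although PDC6 remained the least abundant of the 10 genes per kb of coding length, at 78.1 ± 12.8 scaled counts per kb before and 425 ± 40.2 after SM (SD, n = 3). PDC5 (YLR134W), the isozyme that replaces Pdc1 when PDC1 is lost, had 1630, 1210 and 1286 scaled counts without and 2350, 2525 and 2095 with SM. The rise was 0.76 (SE 0.19, adjusted p = 0.000548) by spike-ins and 0.25 with TMM (adjusted p = 0.0216), and with DESeq2 size factors over yeast genes it was 0.17 and not called (adjusted p = 0.117).

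ADH5 (YBR145W), an alcohol dehydrogenase of minor weight in untreated cells, changed most of the 10. It had 612, 485 and 547 scaled counts without SM and 7458, 8217 and 7670 with it, a log2 fold change of 3.83 (SE 0.19, adjusted p = 1.92e-19), the 147th largest change in either direction among the 6564 genes tested. With TMM the value was 3.33 (adjusted p = 4.52e-14). ADH1 (YOL086C), the fermentative enzyme, fell by 1.31 on the log2 scale (SE 0.16, adjusted p = 3.5e-09), from 60048, 64122 and 54757 scaled counts to 23386, 25979 and 22771. No SM library of ADH1 came near the untreated ones, and the same was true, at smaller distance, of ADH2 (YMR303C). ADH2 fell by 0.65 (SE 0.16, adjusted p = 0.000742), from 3947, 3429 and 3514 to 2376, 2287 and 2280 scaled counts. ADH1 and ADH2 coding sequences are 88.8% identical, with a longest identical run of 189 bases, and PDC1 and PDC5 are 87.2% identical, with a run of 65 bases. No source used here states how reads shared by such copies were counted, so the values of the less abundant member of each pair are uncertain to that extent.

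ADH4 (YGL256W), a dehydrogenase of another protein family that is known to rise in zinc-poor medium, had 4438, 4894 and 7400 scaled counts without SM and 8830, 8958 and 8183 with it. The untreated group was uneven, with library 3 close to the SM group, and the rise of 0.63 (SE 0.19, adjusted p = 0.0047) was not called with TMM (0.14, adjusted p = 0.364) or without untreated library 1 (0.50, adjusted p = 0.0527). ADH3 (YMR083W), the mitochondrial enzyme, had 5280 to 5869 scaled counts without and 4809 to 5131 with SM, a log2 fold change of −0.19 (adjusted p = 0.355) by spike-ins and −0.68 with TMM (adjusted p = 8.23e-08).

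Of the acetaldehyde dehydrogenases, ALD4 (YOR374W) had 12487, 11359 and 12020 scaled counts without SM and 7765, 8962 and 7973 with it, a fall of 0.54 (SE 0.18, adjusted p = 0.00882). ALD6 (YPL061W) had 29066, 30698 and 30569 without and 24482, 26242 and 23037 with SM (log2 fold change −0.29, SE 0.17, adjusted p = 0.13), a difference that was not called. It was called lower with TMM (−0.79, adjusted p = 5.81e-08), DESeq2 size factors (−0.87, adjusted p = 2.58e-08), total spike-in counts (−0.43, adjusted p = 0.00753) and the fit of the 2 groups (−0.29, adjusted p = 0.00203).

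**Figure D1:**
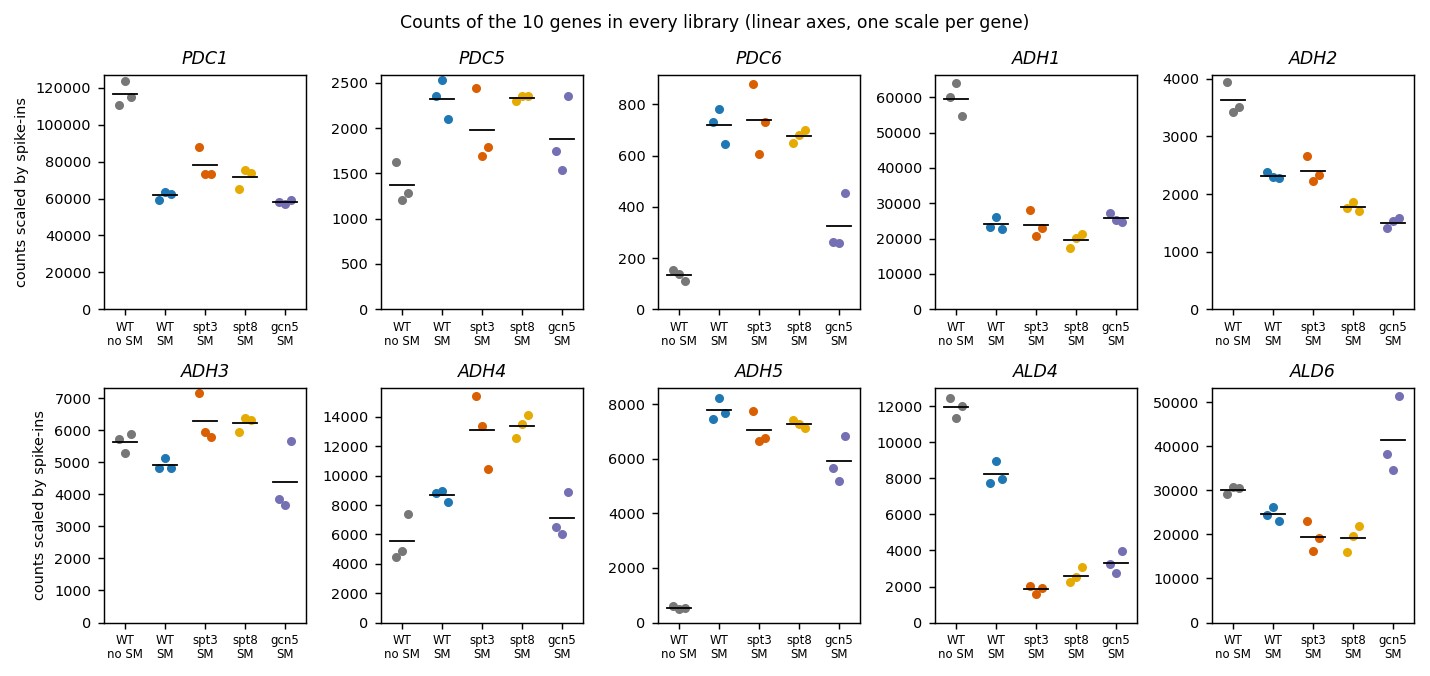
Spike-in scaled counts of each of the 10 genes (vertical axis, linear, its own scale in every panel) in the 5 groups; points are libraries and bars are means of 3. ADH5 rises from near 548 to 7782 with SM, ALD4 is lowest in the 3 deletion strains, and ALD6 is highest in gcn5.

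Shares within a family do not depend on how a library is scaled. Of the summed decarboxylase counts per kb, PDC1 held 98.7% ± 0.267 (SD, n = 3) without SM and 95.3% ± 0.432 with it, PDC5 1.17% and 3.59%, and PDC6 0.112% and 1.11%. Among the alcohol dehydrogenases ADH1 fell from 81.2, 82.9 and 77.1% of the summed counts per kb to 51.2, 52.7 and 51.1%. ADH5 went from 0.735% ± 0.102 to 16.6% ± 0.434 and ADH4 from 5.47, 5.76 and 9.50% to 17.6, 16.5 and 16.7%. ADH2 held 4.91% ± 0.455 and 4.98% ± 0.304. The 3 against 3 design cannot give an exact two-sided permutation p below 0.1, which these shares reached, apart from that of ADH2 (0.8); adjusted over the 70 share tests made, 0.1 becomes 0.135. By rank of counts per kb among the 6564 genes, PDC1 went from 14 to 121, ADH1 from 34 to 245 and ADH5 from 5063 to 1011. The 10 genes together made up 0.732% ± 0.00682 of yeast counts without SM and 0.385% ± 0.0259 with it.

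**Figure D2:**
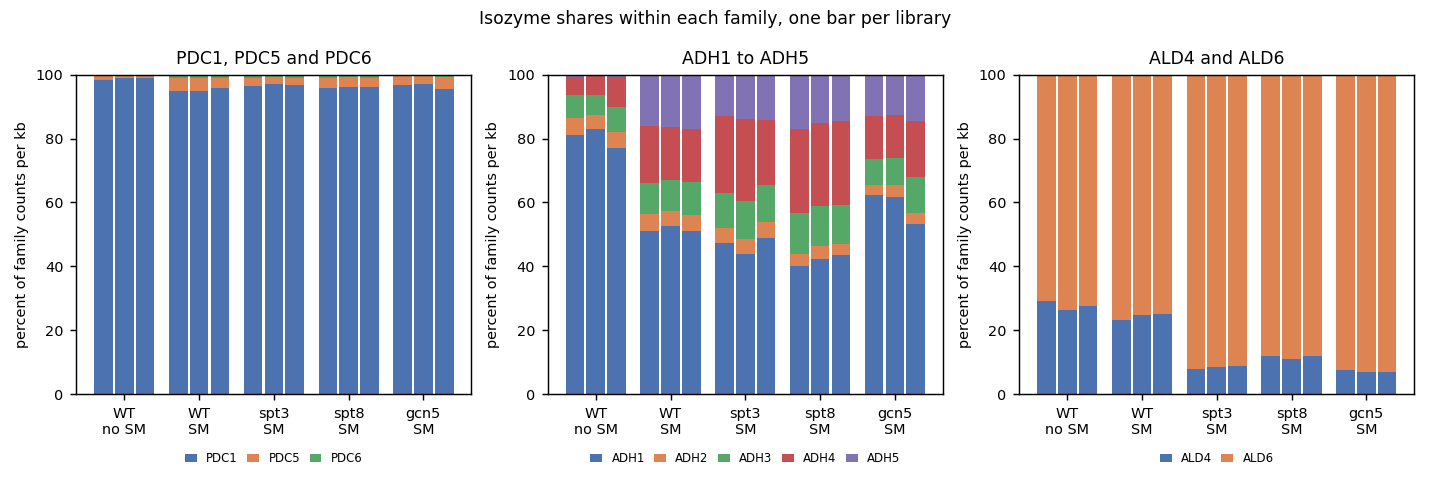
Share of each isozyme (percent of the summed counts per kb of its family) in every library, one stacked bar per library, for the decarboxylases, the alcohol dehydrogenases and the acetaldehyde dehydrogenases. ADH5 grows from 0.735 to 16.6% of its family with SM, and ALD4 holds 24.4% in WT with SM and between 7.21 and 11.6% in the deletion strains.

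In spt3 ALD4 was 4.46-fold lower than in WT with SM, while the share of the 10 genes called was near that of all genes. ALD4 was called lower, ADH4 and PDC1 were called higher, and the other 7 were not called, against 21.7% of all genes called higher and 14% lower (35.7% either way). The median of the 10 genes was 0.01 and that of all genes 0.11. ALD4 had 2044, 1603 and 1897 scaled counts in spt3 against 7765, 8962 and 7973 in WT with SM, so every spt3 library lay far below every WT library. The log2 fold change of −2.16 (SE 0.19, adjusted p = 8.17e-12) ranked 60th in size among all genes tested. ADH4 had 15429, 13366 and 10462 scaled counts against 8830, 8958 and 8183 (log2 fold change 0.60, SE 0.19, adjusted p = 0.0148), and this call was lost without spt3 library 1 (0.47, adjusted p = 0.0761) or WT library 3 (0.56, adjusted p = 0.0503). PDC1 was 88133, 73192 and 73481 against 59105 to 63421, a difference of 0.34 whose adjusted p of 0.0484 lay at the threshold; with TMM it was 0.24 (adjusted p = 0.0594), and leaving out any of 5 of the 6 libraries lost the call. Of the 3 spt3 libraries the first is the highest for ADH4 and PDC1, and it also has the most yeast counts per spike-in factor, 49.2 M against 34.8 and 37.6; its part in these 2 calls beyond the values given was not tested.

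The genes that rose most with SM were not called in spt3. ADH5 had 7761, 6646 and 6779 scaled counts in spt3 (log2 fold change against WT with SM −0.14, 95% interval −0.47 to 0.19) and PDC6 had 878, 606 and 732 (0.04, −0.35 to 0.42), and both overlapped the WT libraries. With TMM ADH5 was called slightly lower (−0.24, adjusted p = 0.0322). ALD6 had 22935, 16239 and 19126 scaled counts, all below the WT range, but −0.34 (adjusted p = 0.116) was not called by spike-ins, while with TMM it was (−0.45, adjusted p = 7.51e-05). By TMM PDC5 was also called lower (−0.34) and ADH3 higher (0.25), which gives 2 genes higher and 4 lower against 33.9% and 31.4% of all genes (65.3% either way). The spt3 and WT libraries did not overlap for 5 of the 10 genes (48.1% of all genes).

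In spt8 ALD4 was also lower than in WT with SM, by 3.16-fold. ALD4 was the only gene called lower and ADH4 the only gene called higher, against 5.58% and 6.57% of all genes (12.1% either way). The median of the 10 genes was −0.09 and that of all genes 0.13. ALD4 had 2252, 2518 and 3056 scaled counts in spt8, all below the WT libraries by a wide margin (log2 fold change −1.66, SE 0.18, adjusted p = 1.11e-08), the 43rd largest change among all genes. ADH4 had 12546, 13500 and 14137 scaled counts, each above every WT library with SM (log2 fold change 0.63, SE 0.19, adjusted p = 0.0274), but leaving out any of the 6 libraries took the adjusted p to between 0.0636 and 0.0957. With TMM ADH4 stayed higher (0.50, adjusted p = 0.00781) and ADH3 joined it (0.21), while ADH1 (−0.43), ADH2 (−0.51) and ALD6 (−0.48) were called lower besides ALD4, against 23.9% and 21.1% of all genes (45.0% either way). The libraries did not overlap for 8 of the 10 genes (44.7% of all genes). ADH5 had 7409, 7296 and 7123 scaled counts in spt8, all slightly below the WT libraries, with a log2 fold change of −0.10 (95% interval −0.43 to 0.24). PDC6 had 650, 679 and 699, within the WT range (−0.09, −0.48 to 0.30).

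In gcn5 the genes called were in part others. ALD4 was again lower (2.48-fold), PDC6 and ADH2 were called lower as well, and ALD6 was 1.69-fold higher. Thus 1 gene was called higher and 3 lower, against 10.5% and 30.4% of all genes (40.9% either way). ADH2 was not separated between spt8 and gcn5 (0.24, adjusted p = 0.232). With TMM it was called lower than in WT in both strains (−0.51 in spt8 and −0.41 in gcn5). The median of the 10 genes was −0.29 and that of all genes −0.19. PDC6 had 262, 261 and 453 scaled counts in gcn5 against 731, 781 and 646 in WT with SM (log2 fold change −1.15, SE 0.20, adjusted p = 1.82e-05). Even its highest gcn5 library lay below the WT range, and that was the library that stood apart; without it the value was −1.45. ALD4 had 3276, 2732 and 3973 scaled counts (−1.31, SE 0.18, adjusted p = 3.72e-07) and ADH2 1403, 1523 and 1578 against 2280 to 2376 (−0.62, SE 0.16, adjusted p = 0.00238).

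ALD6 was higher in every gcn5 library than in any other library of the study. It had 38321, 34502 and 51476 scaled counts against 23037 to 26242 in WT with SM, a log2 fold change of 0.75 (SE 0.17, adjusted p = 0.000485), and 0.58 without gcn5 library 3. It was 0.46 above WT without SM (adjusted p = 0.0165), a comparison in which genotype and drug both differ and which TMM did not call (0.16, adjusted p = 0.0606). ADH5 had 5672, 5201 and 6852 scaled counts, all below the WT libraries, and missed the threshold (−0.40, adjusted p = 0.0592). Without gcn5 library 3 7 genes were lower, PDC5 (−0.49), ADH3 (−0.38), ADH4 (−0.46) and ADH5 (−0.50) in addition, while 3364 rather than 1994 of all genes were. ADH1, at 24784 to 27253 scaled counts, overlapped WT and was not called by spike-ins. It was called higher with TMM (0.34, adjusted p = 0.019) and with DESeq2 size factors (0.34, adjusted p = 0.027). With TMM 34.2% of all genes were called higher and 33.4% lower (67.5% either way). The gcn5 and WT libraries did not overlap for 6 of the 10 genes (41.1% of all genes).

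The comparisons of the 3 strains with WT use the same 3 WT libraries, so their values are set side by side and not correlated. For ALD4 they were −2.16 in spt3, −1.66 in spt8 and −1.31 in gcn5, and for ADH4 0.60, 0.63 and −0.28.

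**Figure D3:**
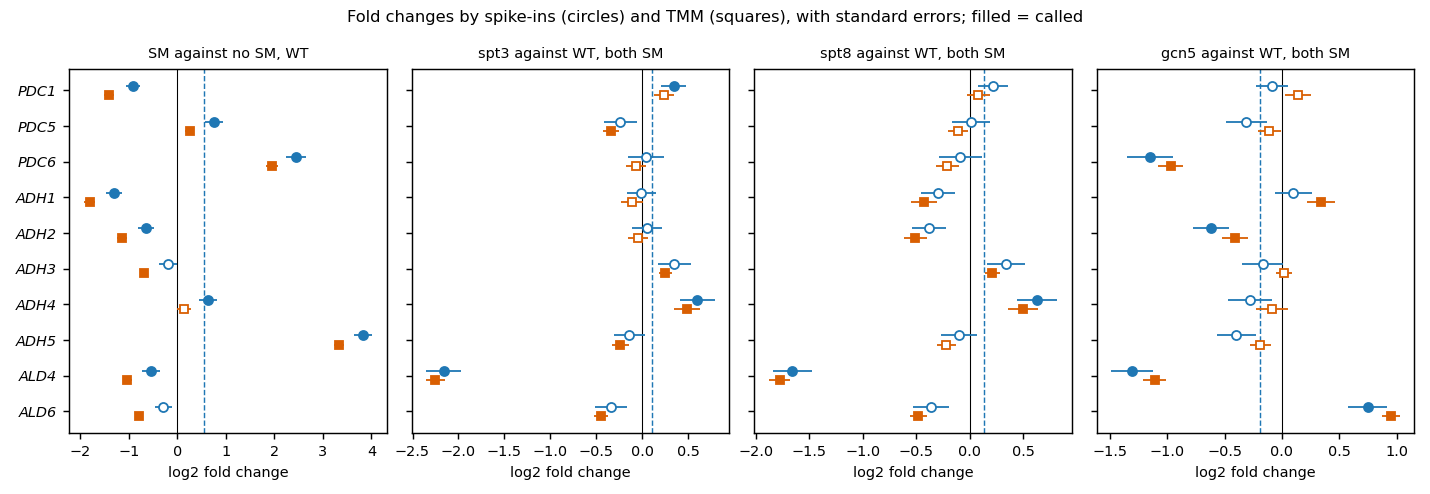
Log2 fold changes (horizontal axis) of the 10 genes in the 4 comparisons by spike-in scaling (circles) and TMM (squares), with SE bars; filled symbols passed an adjusted p of 0.05 and the dashed line is the median of all genes by spike-ins. ALD4 lies between −2.16 and −1.31 in the deletion strains by spike-ins, and ADH5 at 3.83 with SM.

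The deletion strains were also set against each other. Between spt3 and spt8 edgeR called 0 of the 10 genes (1.10% of all genes higher, 2.39% lower, 3.49% either way; libraries of 20.7% of all genes and 2 of the 10 did not overlap), with 2, ADH2 (0.44) and ALD4 (−0.50), at an unadjusted p under 0.05; DESeq2 with the same size factors called ADH2 (adjusted p = 0.0279), the fit of these 2 groups called both (adjusted p = 0.0463 and 0.0153), and so did TMM (31.1% of all genes either way). Between spt3 and gcn5, 5 genes were higher in spt3 and 2 lower (37.3% and 9.72% of all genes; 47.0% either way), and between spt8 and gcn5, 3 were higher in spt8 and 2 lower (37.1% and 7.75%; 44.9% either way). ALD6 was lower in spt3 than in gcn5 by 1.09 on the log2 scale (SE 0.17, adjusted p = 2.54e-06), and lower in spt8 than in gcn5 (−1.11, SE 0.17, adjusted p = 2.35e-06). PDC6 was higher than in gcn5 by 1.19 in spt3 (adjusted p = 9.75e-06) and by 1.06 in spt8 (adjusted p = 5.99e-05), and ADH4 by 0.87 and 0.91 (adjusted p = 0.000377 and 0.000274). ALD4 differed between spt3 and gcn5 (−0.85, adjusted p = 0.000218) and was not called between spt8 and gcn5 with spike-in size factors (−0.35, adjusted p = 0.108). It was called there with total spike-in counts (−0.39, adjusted p = 0.0381) and with TMM (−0.68, adjusted p = 1.59e-05). The remaining calls were of smaller differences. In spt3 against gcn5 they were ADH2 (0.68, adjusted p = 0.000944), PDC1 (0.43, adjusted p = 0.0103, not called with TMM) and ADH3 (0.52, adjusted p = 0.0168), and in spt8 against gcn5 ADH3 (0.50, adjusted p = 0.0207) and ADH1 (−0.40, adjusted p = 0.0357). Leaving out single libraries took the adjusted p to as much as 0.121 for ADH3 in the former comparison, and to 0.146 for ADH3 and 0.124 for ADH1 in the latter. Without gcn5 library 3 6 genes were higher and 2 lower in spt3 than in gcn5, and 5 and 2 in spt8. Over all genes 4204 rather than 2449 were then higher in spt3 and 582 rather than 638 lower. In spt8 the all-gene counts were 4168 rather than 2435 higher and 445 rather than 509 lower. With TMM 4 genes were higher and 4 lower in spt3 than in gcn5 (33.6% and 30.6% of all genes; 64.3% either way), and 3 and 3 in spt8 (31.1% and 31.3%; 62.3%). Libraries did not overlap for 7 of the 10 genes in the former comparison (38.3% of all genes) and 8 in the latter (43.7%). The median of all genes was 0.31 and 0.30, and 0.02 and −0.01 with TMM.

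Within the families the isozyme shares of the strains also differed from WT. ALD4 held 24.4% ± 0.861 of the acetaldehyde dehydrogenase counts per kb in WT with SM, 8.44% ± 0.459 in spt3, 11.6% ± 0.491 in spt8 and 7.21% ± 0.359 in gcn5 (SD, n = 3), and no library of a deletion strain overlapped WT. Its share was lower in gcn5 than in spt3 while its level, like that of ALD6, was higher there. ADH4 held 16.5 to 17.6% of the alcohol dehydrogenase counts per kb in WT with SM, 23.3% ± 2.78 in spt3, 26.2% ± 0.248 in spt8 and 14.8% ± 2.27 in gcn5. ADH1 held 46.8% ± 2.64 in spt3 and 41.9% ± 1.78 in spt8, below its 51.6% ± 0.88 in WT with SM, and 62.3, 61.8 and 53.3% in gcn5, all above the WT libraries. PDC6 held 0.437, 0.441 and 0.732% of the decarboxylase counts per kb in gcn5 against 1.11% ± 0.105 in WT. The exact permutation p of each difference from WT named here was 0.1, the smallest possible, apart from that of ADH4 in gcn5 (0.3).

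Across all 5 groups the genes ordered themselves differently. For PDC1, ADH1, ADH2 and ALD4 the untreated WT was highest, and the next group was separated from it by spike-ins (0.57, 1.21, 0.60 and 0.54 on the log2 scale, with adjusted p of 0.00034, 1.92e-08, 0.00136 and 0.00882). For ADH5, PDC6, PDC5 and ADH4 the untreated WT had the lowest mean. The untreated libraries of PDC5 overlapped those of gcn5, the next group (0.45, adjusted p = 0.0303), and TMM did not call this step (0.14, adjusted p = 0.172). For ADH4 the step to gcn5 was not called (0.36, adjusted p = 0.102). ADH5 in gcn5, its lowest SM group, was still 3.43 above untreated WT on the log2 scale (adjusted p = 2.7e-18), and the neighbours among its 4 SM groups could not be separated. PDC6 fell into 3 levels: spt3, WT and spt8 with SM were not separated, gcn5 lay 1.06 below spt8, and untreated WT a further 1.30 below gcn5 (adjusted p = 1.42e-06). ALD4 likewise stepped down from untreated WT to WT with SM and then to gcn5, with spt8 and spt3 following in steps of 0.35 and 0.50. The fit of all 5 groups with spike-in size factors called neither of these last steps, though each was called under some other settings. ADH3 had no pair of neighbours that differed by spike-ins and spanned only 0.54 between its highest and lowest group means, against 3.83 for ADH5 and 2.70 for ALD4. With TMM both neighbours of untreated WT were called lower, spt8 (−0.47, adjusted p = 6.28e-06) and WT with SM (−0.68, adjusted p = 8.23e-08). Groups further apart in its order, spt3 and spt8 against gcn5, were called by spike-ins (0.52 and 0.50).

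The other genes of fermentation and acetate metabolism, 13 in a list that excludes the 10, split in the same mixed way with SM: 5 were higher and 4 lower, against 55.7% and 7.57% of all genes, with a median of −0.19 (log2) beside 0.54. ARO10, a decarboxylase of 2-keto acids from amino acid breakdown, rose by 5.18 (SE 0.22, adjusted p = 2.29e-21), from 530 ± 42.3 to 19160 ± 1371 scaled counts (SD, n = 3). ALD5, a mitochondrial aldehyde dehydrogenase, rose by 2.38 and ADH7 by 0.92. With TMM 4 were higher and 8 lower, against 41.3% and 37.3% of all genes. In spt3, 3 were higher and 5 lower (21.7% and 14% of all genes), among them the glycerol phosphatase gene GPP2 (−1.40), ALD3 (−1.34) and the acetyl-CoA synthetase gene ACS1 (−1.12). In spt8, 4 were lower and 0 higher (5.58% and 6.57%), among them GPP2 (−1.18), ACS1 (−0.83) and ALD3 (−0.73). In gcn5, 1 was higher and 7 were lower (10.5% and 30.4%), led by ARO10 (−1.35), ALD3 (−1.29) and GPD1 (−1.15).

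Around pyruvate itself, 6 of 12 genes were higher and 3 lower with SM by spike-ins, beside 55.7% and 7.57% of all genes. By TMM 2 were higher and 6 lower, beside 41.3% and 37.3% of all genes. MPC2, a subunit of the mitochondrial pyruvate carrier, rose by 1.78, PYC2, a pyruvate carboxylase, by 0.86, and LPD1, the dihydrolipoamide dehydrogenase of the pyruvate dehydrogenase complex, fell by 0.97. MPC3, the carrier subunit used in respiring cells, was lower in spt3 (−2.04) and in spt8 (−1.56) and not called in gcn5 (−0.06). PYK2, a pyruvate kinase, was lower in spt3 (−0.65) and gcn5 (−1.18) and not called in spt8 (−0.25), and PYC2 was lower in gcn5 (−0.44). Called lower were thus 2 of the 12 in spt3, 1 in spt8 and 2 in gcn5, against 14%, 5.58% and 30.4% of all genes. In each of the 3 strains no gene of this list was called higher by spike-ins. Medians of the list were −0.19, −0.11 and −0.11, beside 0.11, 0.13 and −0.19 for all genes.

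Glucose-repressed genes of carbon metabolism, the class to which ADH2 belongs by textbook, were mostly higher with SM (12 of 14, 1 lower, median 1.26, against 55.7% and 7.57% of all genes), led by the catalase gene CTA1 (2.18), the gluconeogenic PCK1 (1.77) and IDP2 (1.65). ADH2 fell, though its value is uncertain to the extent that reads are shared with the more abundant ADH1. In spt3 10 of the 14 were lower and 1 higher (median −0.74; 14% and 21.7% of all genes), led by FBP1 (−1.98), GUT2 (−1.48) and MLS1 (−1.18). In spt8 6 were lower and 0 higher (5.58% and 6.57% of all genes), led by FBP1 (−1.26), PCK1 (−1.07) and GUT2 (−1.02), and in gcn5 6 were lower and 2 higher (30.4% and 10.5%), led by MLS1 (−1.96), GUT2 (−1.24) and FBP1 (−1.17). ACS1 stands in this list and in the preceding list of fermentation genes.

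Thiamine genes supply the cofactor of the decarboxylases. With SM 12 of 16 were higher and 2 lower (median 1.37; 55.7% and 7.57% of all genes), among them THI11 (2.17), PET18 (2.08) and THI4 (2.06), although THI5, THI11, THI12 and THI13 are near-identical copies whose reads cannot be assigned with certainty. In spt3 1 was higher and 1 lower (21.7% and 14% of all genes), in spt8 1 was higher and 0 lower (6.57% and 5.58%), and in gcn5 5 were higher and 3 lower (10.5% and 30.4%), with PHO3 at −2.50, THI5 at 1.42 and THI12 at 1.17. Zinc response genes, the class of ADH4, were 8 of 14 higher and 1 lower with SM, near the 55.7% and 7.57% of all genes (FET4 1.91, VEL1 1.49, IZH4 1.28). Their median of 0.53 lay beside 0.54 for all genes. By TMM 5 were higher and 5 lower, beside 41.3% and 37.3% of all genes. In spt3 3 were higher and 1 lower, in spt8 5 were higher, with ZPS1 at 1.35 and 1.56, and in gcn5 1 was higher and 8 lower, with FET4 at −1.93, IZH4 at −1.51 and IZH2 at −1.05. Of all genes 21.7%, 6.57% and 10.5% were higher and 14%, 5.58% and 30.4% lower in spt3, spt8 and gcn5. ADH4 was higher in spt3 and spt8 and not called in gcn5 (−0.28).

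Of 15 transcription regulators linked to the 10 genes, 4 were higher and 1 lower with SM, beside 55.7% and 7.57% of all genes. THI3 and THI2 rose by 1.11 each and TYE7, an activator of glycolytic genes, fell by 0.81. Against WT with SM, CAT8, an activator of genes for growth without glucose, was lower in spt3 (−1.33) and spt8 (−0.91) and higher in gcn5 (0.99). MSN4, of the stress response, was lower in spt3 (−1.17) and spt8 (−0.90) and not called in gcn5 (−0.08). ZAP1, the zinc regulator, was higher in spt3 (0.95) and spt8 (0.81) and lower in gcn5 (−0.54). Calls, higher and lower, were 4 and 4 in spt3 (21.7% and 14% of all genes), 2 and 2 in spt8 (6.57% and 5.58%) and 2 and 3 in gcn5 (10.5% and 30.4%).

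**Figure D4:**
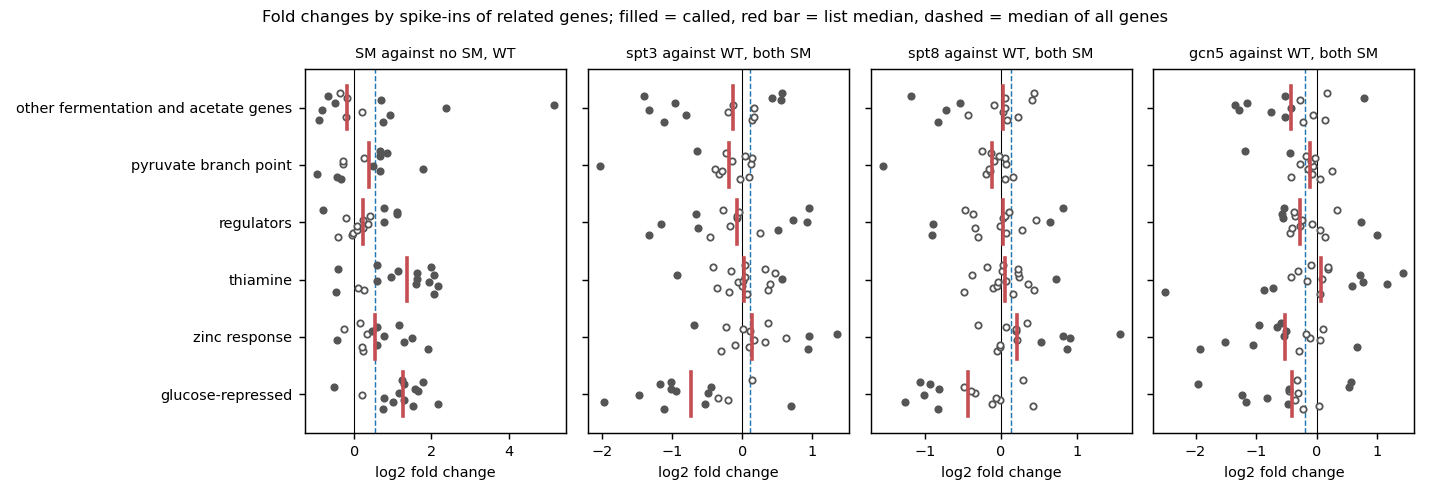
Log2 fold changes by spike-ins (horizontal axis) of the genes of the 6 lists in the 4 comparisons; each point is a gene, filled when its adjusted p was under 0.05, the red bar is the list's median and the dashed line the median of all genes. With SM the thiamine and glucose-repressed lists have medians of 1.37 and 1.26 beside 0.54 for all genes.

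For each of the 8 genes whose group means spanned at least 1 on the log2 scale, the genes most like it were found by the root-mean-square difference (RMS) between the 5 centred log2 group means, among genes with a mean of 100 or more scaled counts. Closest to ADH5 were SPO21 (RMS 0.104), SPO77 (0.112) and FMP23 (0.149), and closest to PDC6 were ZIP2 (0.091), ODC2 (0.115) and PRM1 (0.124). ALD4 was followed by CYC7 (0.172), which encodes the minor form of cytochrome c, MSC1 (0.189) and GDB1 (0.197), the glycogen debranching enzyme gene. ALD6 was followed by SFG1 (0.132), MDH2 (0.152) and DBP1 (0.155), and ADH4 by STE13 (0.057), YPT11 (0.062) and PUS9 (0.072). PDC1 ran with RPT5, CAJ1 and BTN2 (0.057 to 0.063), ADH1 with COR1, COX17 and CUZ1 (0.148 to 0.169), and ADH2 with DID2, MIR1 and ELF1 (0.102 to 0.125). Within the 10 genes the closest pair was PDC1 and ADH2 (0.21) and the most distant ADH5 and ALD4 (2.30). These likenesses rest on 5 group means each, which share their libraries and scaling factors.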

How the data were processed

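RNA from 15 yeast samples was sequenced as stranded, rRNA-depleted, paired-end libraries with ERCC spike-ins, per the labels' protocols. The deposited table gives counts per feature, taken as deposited; per the submitters' processing notes the authors used STAR, SAMtools and DESeq2 with the sacCer3 genome, without versions. No source used here states the strand counted or the treatment of shared reads. Of the yeast identifiers, 6008 matched RefSeq R64, 5981 at the same start and end.

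Size factors were medians of ratios over the spike-ins. edgeR 4.0.16 (R 4.3.3) fitted all 5 groups by quasi-likelihood over genes kept by filterByExpr, with Benjamini-Hochberg adjustment and calls at 0.05. The common coefficient of variation between replicates was 16.1% with spike-ins and 7.86% with TMM. Alternatives were TMM, DESeq2 size factors over yeast genes, total spike-in counts, DESeq2 1.42.0, no count filter, a replicate block, fits of the 2 groups compared and leaving out each library. Scripts were tested on simulated counts with a smaller spread between replicates than in these data. That test checks the code and not the error rate of the calls. Shares used counts per kb of coding length and exact two-sided permutation tests. Tables were made in Python 3.11.15 with scipy 1.17.1 and figures with matplotlib 3.10.9. Intervals are estimate ± 1.96 SE.

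The 10 genes and the gene lists were chosen with earlier results of these data known. All 10 genes were tested in every comparison, and all are named for SM in WT. In the other comparisons some genes that edgeR did not call with spike-in size factors are not named. Of each list up to 3 called genes with the largest change are named. All 10 passed the count filter.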

Additional observations from a re-analysis of the deposited data

Results flagged for a closer look

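Differences between deletion strains were picked out where the direct test of strain against strain passed an adjusted p of 0.05 in edgeR, which held for 12 of the values of the 10 genes. In spt3 against gcn5 the log2 difference was 0.43 for PDC1, 1.19 for PDC6, 0.68 for ADH2, 0.52 for ADH3, 0.87 for ADH4, −0.85 for ALD4 and −1.09 for ALD6. In spt8 against gcn5 it was 1.06 for PDC6, −0.40 for ADH1, 0.50 for ADH3, 0.91 for ADH4 and −1.11 for ALD6. Between spt3 and spt8 this test called 0 of the 10, with ADH2 and ALD4 at an unadjusted p under 0.05; DESeq2 called 1. The spt3 and gcn5 strains also differ in library set, and the set and the genotype cannot be told apart there.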

How the results depend on the processing

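The SM changes of ADH5 and PDC6 kept their direction and call under every alternative run. So did the lower level of ALD4 in all 3 strains than in WT with SM, and the gcn5 values of PDC6 and ALD6. Of 70 values (10 genes in 7 comparisons), TMM kept the direction and call of 41, added 15 calls of unchanged sign, lost 3 and reversed 11 in sign. DESeq2 size factors over yeast genes gave 40, 16, 4 and 10. Replicate numbers did not pair the samples (correlations −0.386 to 0.25), and the replicate block, given for completeness, lost 2 calls, PDC1 in spt3 against WT (0.35) and ADH1 in spt8 against gcn5 (−0.40). Where values moved, the cause was not tested.

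Counts of calls among the 10 genes that moved by over 1.5 times were these; smaller moves are not listed, apart from those with SM. With SM, DESeq2 size factors gave 2 higher, and 6 were lower with TMM and DESeq2 size factors and 5 with total spike-in counts and the fit of 2 groups, through ALD6 and, for the former pair, ADH3. In spt3 against WT, the replicate block and the fit of the 2 groups gave 1 higher, and TMM and DESeq2 size factors 4 lower. In spt8 against WT, TMM, DESeq2 size factors, total spike-in counts and the fit of 2 groups gave 2 higher; TMM, DESeq2 size factors and the fit of 2 groups gave 4 lower and DESeq2 gave 2. In gcn5 against WT, TMM and DESeq2 size factors gave 2 higher. In spt3 against spt8, TMM, DESeq2 size factors, DESeq2 and the fit of 2 groups gave 1 higher, TMM and the fit of 2 groups 1 lower and DESeq2 size factors 2 lower. In spt3 against gcn5, the fit of 2 groups gave 3 higher, and TMM and DESeq2 size factors 4 lower. In spt8 against gcn5, the replicate block and the fit of 2 groups gave 1 lower. Leaving out each library in turn gave 3 to 4 higher and 4 lower with SM, 0 to 2 and 1 to 2 in spt3, 0 and 1 in spt8, 1 and 3 to 7 in gcn5, 4 to 6 and 2 in spt3 against gcn5, 2 to 5 and 1 to 2 in spt8 against gcn5, and none between spt3 and spt8. Over all genes, by spike-ins and TMM in that order, 497 and 2445 were lower with SM, 1426 and 2223 higher and 919 and 2061 lower in spt3, 431 and 1570 higher and 366 and 1382 lower in spt8, and 691 and 2241 higher in gcn5. The fit of 2 groups gave 812 of all genes lower with SM, 1574 higher in spt3, and 1742 higher and 766 lower in spt8. It gave 284 higher and 378 lower in spt3 against spt8. Against gcn5 it gave 1460 higher in spt3 and 397 lower in spt8. Without gcn5 library 3, 3364 of all genes were lower in gcn5 than in WT. For the settings besides these no count over all genes is given, so the counts of the 10 genes there have no share beside them.

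All sign changes were of values not called by spike-ins. With TMM and DESeq2 size factors, in that order, these were PDC6 (−0.07, −0.10) and ADH2 (−0.05, −0.08) in spt3, PDC5 in spt8 (−0.11, −0.11), and PDC1 (0.14, 0.14) and ADH3 (0.02, 0.01) in gcn5. Between strains they were PDC5 (−0.23, −0.26) and ADH5 (−0.04, −0.07) in spt3 against gcn5. PDC5 was called lower in spt3 than in gcn5 with these 2 scalings (adjusted p = 0.042 and 0.0255). In spt8 against gcn5 they were PDC1 (−0.05, −0.05), ADH2 (−0.10, −0.10), ADH5 (−0.03, −0.02) and, with TMM, PDC5 (−0.00). ADH1 in spt3 was 0.05 with total spike-in counts and 0.00 in the fit of 2 groups. Leaving out libraries spanned −0.10 to 0.16 for PDC6, −0.13 to 0.08 for ADH1 and −0.01 to 0.10 for ADH2 in spt3, and −0.06 to 0.06 for PDC5 in spt8. It spanned −0.01 to 0.25 for PDC6, −0.08 to 0.08 for ADH3, −0.17 to 0.12 for ADH4 and −0.11 to 0.13 for ALD6 between spt3 and spt8, and −0.10 to 0.26 for PDC5 in spt3 against gcn5.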
